A study of Phyllostachys nigra with 21 samples.

Results

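Cytochrome P450 genes of families 71, 72 and 76 were followed in culms of black bamboo (Phyllostachys nigra, Pn) held at low temperature (LT) or room temperature (RT). Genes were taken by name alone: every gene whose description, copied from its closest protein match, reads cytochrome P450 71, 72 or 76 followed by a letter. This gave 41 of 42460 genes, of which 20 belong to family 71 (17 in 71A and 3 in 71D), 17 to family 72 (all in 72A) and 4 to family 76 (3 in 76C and 1 in 76M). The family name is that of the matched protein and was not checked against a sequence, since no genome or protein set was used here. RNA-seq libraries covered 21 samples in 7 groups of 3. CK was culm tissue before treatment, LT1d, LT15d and LT25d were culms of plants kept at 4 °C for 1, 15 and 25 days, and RT1d, RT15d and RT25d were culms kept at 25 °C for the same times. All plants were grown in pots from transplanted field rhizomes, no group carried an altered gene, and the labels do not say which plants stand behind each replicate, so p-values measure the spread between these libraries, which may in part be technical.

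Cytochrome P450s are haem enzymes, mostly anchored in the endoplasmic reticulum, that insert an oxygen atom into a substrate with electrons passed on by NADPH-cytochrome P450 reductase or cytochrome b5. The 71 clan, which includes families 71 and 76, is the part of the superfamily that has expanded most in specialised metabolism of plants, including indole alkaloids, terpenoids and defence compounds. In rice, tryptamine 5-hydroxylase (T5H), a member of subfamily 71P, converts tryptamine to serotonin. It acts after aromatic-L-amino-acid decarboxylase (also called tryptophan decarboxylase, TDC), which makes tryptamine from tryptophan. The first 71A1 protein was described from avocado fruit, the founding 72A enzyme of Catharanthus roseus is secologanin synthase, and 76M enzymes of rice act on diterpenoid phytoalexins. No description in the files named subfamily 71P (0 genes), and 17 further genes were described as indole-2-monooxygenase or indolin-2-one monooxygenase, enzymes of benzoxazinoid synthesis in maize, without a P450 number. Which Pn gene encodes T5H was therefore not told by the descriptions.

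Levels are the deposited FPKM, in which fragment numbers are divided by transcript length and by library depth, so levels of different genes can be set side by side. Calls come from the deposited counts by edgeR's quasi-likelihood test over the 29913 genes that reached 1 FPKM in 3 or more libraries. A call needed an adjusted p (Benjamini-Hochberg, over all tested genes) of 0.05 or less. It also needed TMM-scaled counts that differed by a factor of 2 or more, a log2 fold change of at least 1 or at most −1. TMM factors were 0.81 to 0.84 in the LT1d libraries and 1.14 to 1.15 in RT1d, so these folds can differ from ratios of FPKM. A called gene can therefore differ by less than a factor of 2 in FPKM. Of the 41 P450 genes, 29 passed the filter on low values: 12 of family 71, 14 of family 72 and 3 of family 76. The other 12 reached at most 1.77 FPKM in any library. Total counts ran from 33957497 to 50338658 per library. They are sums of estimated counts that exceed the valid reads listed by the study for most libraries, so they are not numbers of sequenced fragments. Replicates were uneven. Over 1791 genes with high counts, the median coefficient of variation within a group was 2.51% to 3.02% in LT15d, LT25d and RT15d and 8.96% to 23.3% in CK, LT1d, RT1d and RT25d, and the lowest log2 correlation between replicates was 0.888 in CK and 0.925 in RT25d. The summed FPKM of 14 chlorophyll a-b binding protein genes, markers of green tissue, was 5.36 to 13.0 in LT1d and 388 to 566 in RT1d, 177 to 180 in LT15d and 320 to 355 in RT15d, and 128 to 132 in LT25d and 44.1 to 124 in RT25d. Their part in the results below was not tested, and in bulk tissue fewer cells of a type and less RNA per cell cannot be told apart. Secondary wall cellulose synthases (3 genes) summed to at most 6.22 FPKM in any library, and the single floral MADS-box gene reached at most 1.04.

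The P450 genes did not move as a block under LT. On Day 1, 7 of the 29 tested genes were called higher and 8 lower in LT than in RT, or 24.1% and 27.6%, against 20.8% and 23.4% of all tested genes. On Day 15, 7 were higher and 9 lower, or 24.1% and 31.0%, against 19.3% and 20.8% of all. On Day 25, 3 were higher and 9 lower, or 10.3% and 31.0%, against 11.3% and 13.2% of all. The shares thus lay within a few points of those of all genes on Day 1. On Days 15 and 25 the lower calls took a larger share than among all genes. These shares are descriptions. The 29 genes had median log2 fold changes of −0.20, −0.09 and −0.23 over the 3 days, beside −0.06, −0.02 and −0.02 for all tested genes. The split on Days 1 and 15 depended on the scaling used. Scaling by library size alone, which moved the median of all genes to −0.53 on Day 1 and −0.37 on Day 15, gave 4 higher against 9 lower calls at Day 1 and 4 against 10 at Day 15. Over all 29913 tested genes it gave 4238 higher and 10257 lower calls at Day 1, and 4079 and 8569 at Day 15. The later days also depended on how the replicates of LT15d, LT25d and RT15d were treated. With those replicates, which differ little, added up to 1 library a group, fewer P450 genes were called by edgeR on both days. Fewer of all tested genes were called on these days as well. For comparison, 60 genes of other numbered P450 families were tested. Higher calls numbered 19 on Day 1, 22 on Day 15 and 9 on Day 25, or 31.7%, 36.7% and 15% of them. Lower calls numbered 24, 17 and 17, or 40%, 28.3% and 28.3%. A share of lower calls above that of all genes on Day 25 was thus also seen in the other P450 families.

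**Figure D1:**
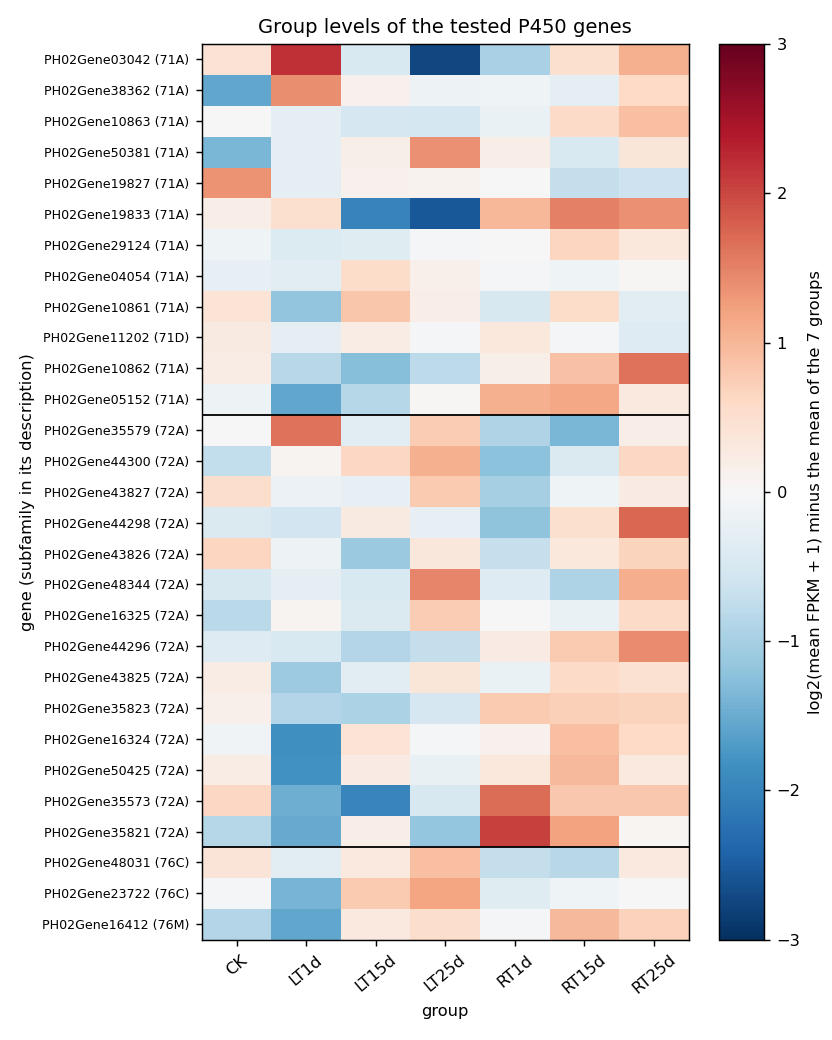
Group levels of the 29 tested P450 genes (rows, subfamily in brackets, families separated by black lines, ordered within a family by the Day 1 fold change) in the 7 groups (columns). Colour gives log2(mean FPKM + 1) minus the mean of the 7 groups. LT1d holds the lowest mean of 10 genes and the highest mean of 3, among them PH02Gene03042 and PH02Gene38362 at the top. These means are FPKM without TMM factors, and lowest and highest groups were not counted over all genes. On the log2(FPKM + 1) scale, genes in general also lay lower in LT1d than in RT1d, by a median of −0.43 over 29913 genes. Whether the P450 genes are lowest in LT1d more often than other genes was not tested.

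Calls were also counted by family, with no test between families. Of all tested genes, 20.8%, 19.3% and 11.3% were called higher on Days 1, 15 and 25, and 23.4%, 20.8% and 13.2% lower. Of the 12 tested genes of family 71, LT raised 2 and lowered 2 on Day 1 (16.7% each). On Day 15 it raised 3 and lowered 5 (25% and 41.7%), and on Day 25 it raised 2 and lowered 4 (16.7% and 33.3%). Of the 14 of family 72, LT raised 5 and lowered 5 on Day 1 (35.7% each), and raised 2 and lowered 4 on Day 15 (14.3% and 28.6%). On Day 25 it lowered 5 genes of family 72 (35.7%) and the other 9 were not called. The median log2 fold change of family 72 on Day 1 was 0.21 with TMM scaling and −0.27 with library size only, so no direction is given for the family. Of the 3 tested genes of family 76, LT lowered 1 on Day 1 and raised 2 on Day 15 and 1 on Day 25. Only 3 genes, PH02Gene35573, PH02Gene35823 and PH02Gene10862, were called in the same direction on all 3 days, and all were lower in LT, a pattern shown by 3.59% of all tested genes. For PH02Gene10862 the Day 1 call was lost without LT1d replicate 2, LT1d replicate 3 or RT1d replicate 1 (edgeR adjusted p from 0.0507 to 0.0791), and it is then called on 2 days. A further 5 were not called on any day, against 35% of all. The LT effect itself differed between Day 1 and Day 25 in 17 of 29 genes (44.9% of all tested genes) and between Day 1 and Day 15 in 14 (33.2% of all), by the interaction term of the same edgeR fit.

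**Figure D2:**
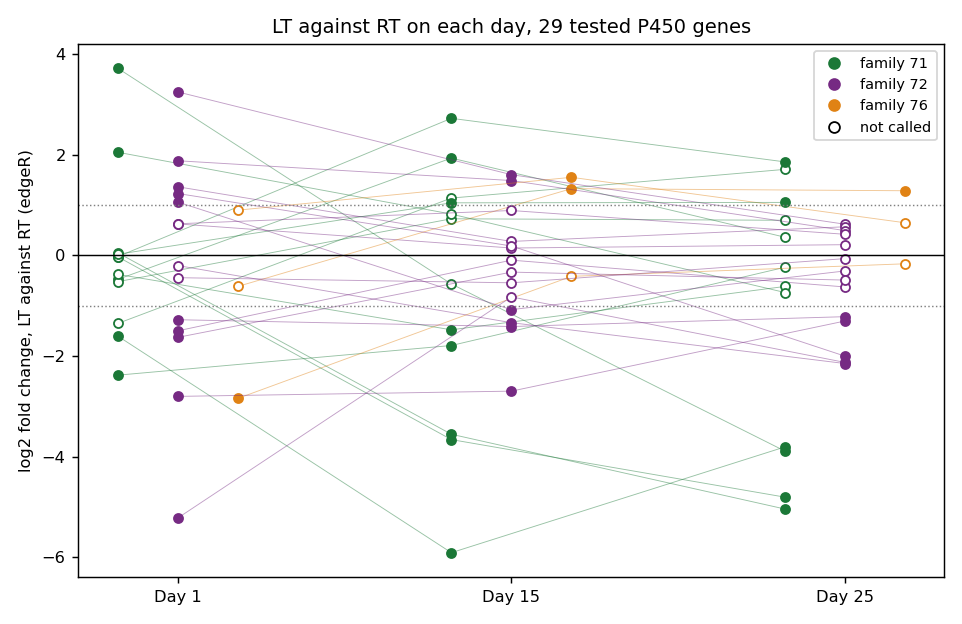
Log2 fold change of LT against RT (vertical axis, edgeR) on Days 1, 15 and 25 (horizontal axis) for the 29 tested P450 genes. Lines join a gene over the days, colours give the family, filled points were called and open points were not, and dotted lines mark a log2 fold change of 1 and −1. PH02Gene03042 runs from 3.72 on Day 1 to −3.89 on Day 25, and PH02Gene35821 is the lowest point on Day 1 at −5.22.

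A single P450 gene followed the TDC genes over the groups. TDC was represented by 7 genes, of which 5 passed the filter. PH02Gene42909, the TDC gene with the highest level, was at 1.26, 1.14 and 1.66 FPKM in CK, 259, 255 and 257 in LT1d, 53.8, 54.1 and 51.8 in LT15d and 29.1, 27.4 and 27.2 in LT25d. At RT it was at 8.13, 5.35 and 15.2 in RT1d, 13.4, 12.8 and 13.9 in RT15d, and 57.0, 28.3 and 2.99 in RT25d. CK was thus lowest and LT1d highest, and the RT25d libraries spanned the LT25d values on both sides. PH02Gene31517 (198 to 254 FPKM in LT1d), PH02Gene26873 (43.1 to 47.2) and PH02Gene26874 (24.1 to 36.4) also had their highest group means in LT1d, although PH02Gene26874 reached 49.9 FPKM in RT25d replicate 1, and PH02Gene42906 stayed at or below 2.04 FPKM. Of the 5, 4 were higher in LT on Day 1, and 3 with the replicates of LT15d, of LT25d and of RT15d added up (PH02Gene26874, edgeR adjusted p = 0.0506). On Day 15, 2 of the 5 were higher in LT and 1, PH02Gene42906, was lower, and on Day 25 0 were called. These Day 15 calls rest on LT15d and RT15d replicates that differ little. The call for PH02Gene42906 was also lost without LT15d replicate 2 or 3 or RT15d replicate 2. To compare profiles, the 7 group means of log2(FPKM + 1) of each TDC gene were centred and scaled, then averaged. The resulting profile was −1.92 in CK and 1.46 in LT1d and between −0.18 and 0.26 in the other 5 groups, so it turns mainly on the lowest and the highest group.

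PH02Gene38362, described as P450 71A1 (scaffold 11, 19129822 to 19132041, minus strand, in the P. edulis assembly to which the study mapped its reads), had a Pearson r of 0.95 with the TDC profile. It was the only one of 29 tested P450 genes at or above 0.9, a level reached by 43 of all 29913 tested genes (0.144%), of which 4 were TDC genes themselves. Its FPKM in the libraries was 29.2, 22.1 and 19.5 in CK, 204, 175 and 189 in LT1d, 79.0, 77.8 and 76.5 in LT15d, and 61.9, 64.0 and 66.0 in LT25d. In RT it was 59.2, 47.2 and 90.1 in RT1d, 59.6, 52.5 and 61.4 in RT15d, and 190, 108 and 28.0 in RT25d. Every LT1d library lay above every library of CK and RT1d, and the RT25d libraries spread from near the CK level to the LT1d level. LT raised the gene on Day 1, with a log2 fold change of 2.05 (SE 0.42, edgeR adjusted p = 0.000327). The log2 fold changes of 0.82 (SE 0.40, edgeR adjusted p = 0.0843) on Day 15 and −0.74 (SE 0.40, edgeR adjusted p = 0.146) on Day 25 were not called. On Day 25 the value rested on the RT25d libraries, with −1.19 (edgeR adjusted p = 0.000639) without RT25d replicate 3 and −0.01 (edgeR adjusted p = 0.980) without RT25d replicate 1. The LT effect differed between Days 1 and 25 by 2.79 (SE 0.58, edgeR adjusted p = 0.00051). Against CK, the gene was higher in all 6 treated groups, with log2 fold changes of 3.20, 1.87 and 1.20 after 1, 15 and 25 days of LT and 1.15, 1.05 and 1.93 after the same times of RT (edgeR adjusted p from 9.23e-06 to 0.0407), which share the same CK libraries.

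**Figure D3:**
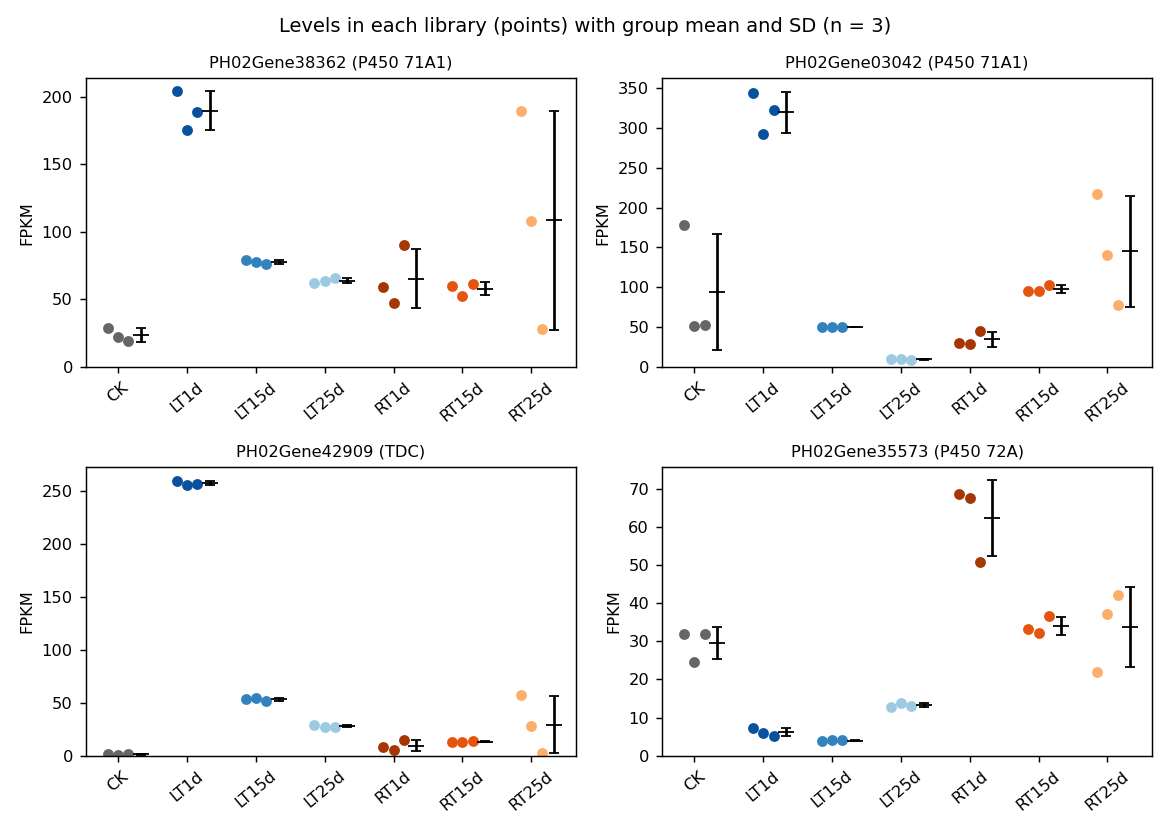
FPKM (vertical axes, from 0) of 3 P450 genes and a TDC gene in the 7 groups (horizontal axes). Points are libraries and black bars the group mean and SD (n = 3). PH02Gene38362 and the TDC gene PH02Gene42909 are lowest in CK and highest in LT1d, PH02Gene03042 is also highest in LT1d but lowest in LT25d (9.11 to 10.1), and PH02Gene35573 is lower in every LT group than in the RT group of that day.

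The likeness of PH02Gene38362 to TDC held on other scales, with exceptions. The r was 0.92 on TMM-scaled log2 CPM, 0.91 without CK and 0.96 over the 21 libraries, where 9 of all tested genes reached 0.9. Without CK, 611 of all tested genes (2.04%) reached 0.9. With a single TDC gene as the reference, r was 0.92 to 0.95 for the 4 abundant genes and 0.07 for PH02Gene42906. Spearman's rho over the 7 means was 0.54, below 0.9, the 5 middle groups of the TDC profile lying close together. The likeness was also seen inside most groups. In CK, LT15d, LT25d, RT1d and RT25d the library with the highest mean TDC level was also the highest for PH02Gene38362. In LT1d and RT15d the library with the highest mean TDC level was the lowest for that gene. After the mean of its group was taken from each library, a comparison added after the data were seen, r over the 21 libraries was 0.97, higher than in 99.96% of all tested genes. Much of that came from RT25d, where replicate 1 was high and replicate 3 low for both, and without RT25d r was 0.74, higher than in 99.2% of genes. These correlations are descriptions over groups or libraries that all genes share, and they carry no p.

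**Figure D4:**
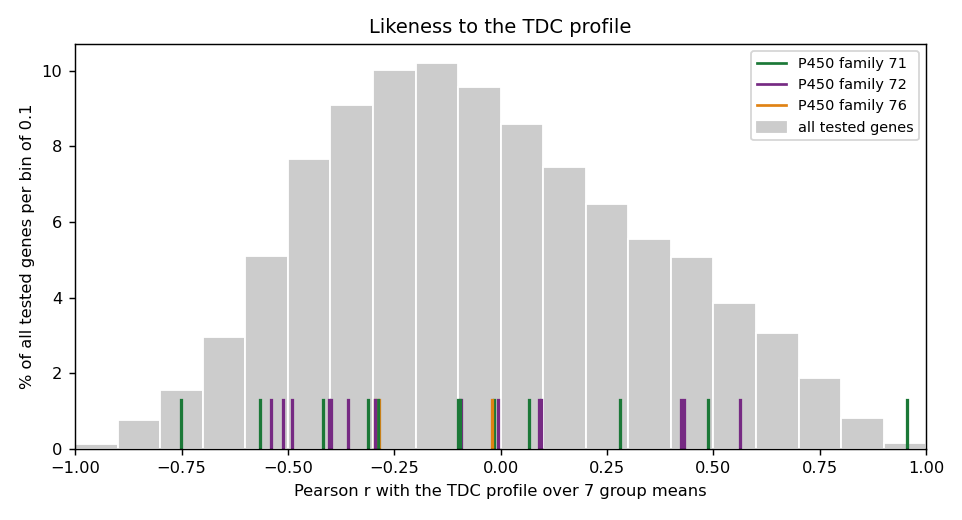
Pearson r with the TDC profile over 7 group means (horizontal axis). Grey bars give the percentage of all 29913 tested genes in each bin of 0.1, and coloured ticks mark the 29 tested P450 genes by family. PH02Gene38362 (0.95) stands alone at the right and the next P450 gene is at 0.56.

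The next genes in likeness were far below. PH02Gene16325 (72A14; r = 0.56) was at 15.7 ± 8.98 FPKM (SD, n = 3) in CK, 30.3 ± 9.41 in LT1d and 28.4 ± 2.74 in RT1d, and its highest mean was in LT25d (49.1 ± 1.28), not in LT1d. PH02Gene50381 (71A1; r = 0.49) likewise had its highest level in LT25d, at 90.5, 90.3 and 88.9 FPKM, against 71.2, 44.3 and 17.1 in RT25d. It was called higher in LT on Day 15 (log2 fold change 1.05, SE 0.41, edgeR adjusted p = 0.0343) and Day 25 (1.05, SE 0.41, edgeR adjusted p = 0.0438). Both calls were lost with the replicates added up (edgeR adjusted p = 0.404 and 0.328), the Day 15 call also without any of its 6 libraries, and the Day 25 call without any LT25d library or RT25d replicate 2 or 3. PH02Gene44300 (72A14; r = 0.43), PH02Gene35579 (72A15; r = 0.42) and PH02Gene03042 (71A1; r = 0.28) followed. At the other end stood PH02Gene19827 (71A1-like; r = −0.75), PH02Gene11202 (71D7-like; r = −0.57) and PH02Gene50425 (72A15; r = −0.54). PH02Gene19827 was highest in CK (1.68, 5.25 and 5.60 FPKM) and at most 1.55 FPKM elsewhere. It was higher in LT on Day 15 (log2 fold change 2.73, SE 0.64, edgeR adjusted p = 0.00133), when RT15d stood at 0.157 to 0.312 FPKM, and on Day 25 (1.86, SE 0.62, edgeR adjusted p = 0.0201). With the replicates added up neither was called (edgeR adjusted p = 0.136 and 0.200), and the Day 25 call was also lost without LT25d replicate 3 or RT25d replicate 3. PH02Gene11202 stayed at or below 1.21 FPKM and was not called on any day.

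**Figure D5:**
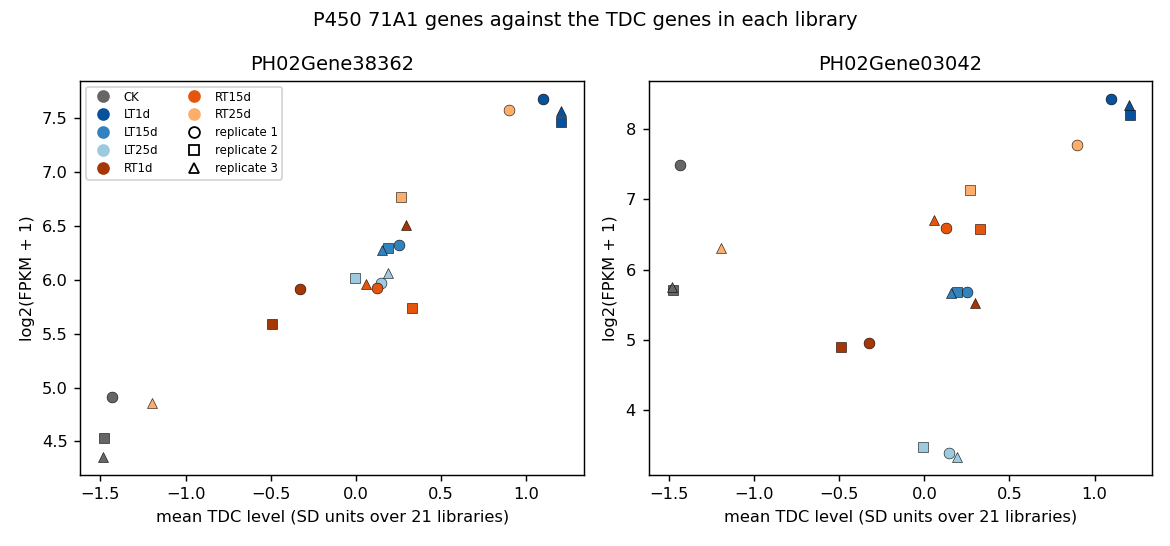
Log2(FPKM + 1) of PH02Gene38362 (left) and PH02Gene03042 (right) in each of the 21 libraries (vertical axes) against the mean level of the 5 tested TDC genes, in SD units over the libraries (horizontal axes). Colours give the group and symbols the replicate. PH02Gene38362 rises with TDC over the libraries (r = 0.96), RT25d replicates 1 to 3 included, while the LT25d libraries of PH02Gene03042 lie far below the rest.

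PH02Gene03042, also described as P450 71A1 (scaffold 3, 19546427 to 19549442, plus strand), had the highest mean level of family 71 and reversed its LT effect. Its FPKM was 178, 51.4 and 52.9 in CK, 343, 293 and 323 in LT1d, 50.6, 50.2 and 49.8 in LT15d, and 9.51, 10.1 and 9.11 in LT25d. In RT it was 30.1, 28.9 and 45.1 in RT1d, 95.1, 94.9 and 103 in RT15d, and 217, 140 and 78.0 in RT25d. The gene stood above all RT1d libraries on Day 1 and below all RT25d libraries on Day 25, and CK replicate 1 lay apart from the other 2. The log2 fold change was 3.72 on Day 1 (SE 0.39, edgeR adjusted p = 3e-07), −0.57 on Day 15 (SE 0.35, edgeR adjusted p = 0.172) and −3.89 on Day 25 (SE 0.40, edgeR adjusted p = 7.35e-07). The difference between the Day 1 and Day 25 effects was 7.61 (SE 0.56, edgeR adjusted p = 7.9e-09). PH02Gene03042 and PH02Gene38362 together made up 90.8% ± 1.07 (SD, n = 3) of the summed FPKM of family 71 in LT1d, 49.5% ± 8.78 in RT1d and 39.1% ± 0.83 in LT25d. The sum over family 71 was 561 ± 50.5 FPKM (SD, n = 3) in LT1d, 200 ± 31.4 in RT1d and 171 ± 79.4 in CK. It was 183, 356 and 539 FPKM in the RT25d libraries, the highest of which lay within the LT1d range of 510 to 610.

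Of the other genes of subfamily 71A, some were lower in LT at the later days. PH02Gene19833 (71A1; scaffold 18, 40572239 to 40575204) was at 20.1, 10.3 and 15.8 FPKM in LT1d and 25.1, 19.4 and 22.7 in RT1d. It stood at 2.12, 1.90 and 1.78 in LT15d against 33.5, 27.6 and 35.7 in RT15d, and at 1.00, 0.933 and 1.11 in LT25d against 36.5, 32.0 and 19.1 in RT25d. The libraries did not overlap on Days 15 and 25, and the log2 fold changes were −3.66 (SE 0.32, edgeR adjusted p = 4.04e-08) and −4.80 (SE 0.34, edgeR adjusted p = 9.63e-09). PH02Gene10862 and PH02Gene10863 lie 0.128 kb apart on the same strand of scaffold 14 (90321674 to 90324663), and counting could split reads between them if their copies are alike. PH02Gene10862 was at 0, 0.00485 and 0.0861 FPKM in LT15d and 4.08, 2.89 and 3.82 in RT15d, and was lower in LT on all 3 days (−1.60, −5.91 and −3.80 on the log2 scale, edgeR adjusted p = 0.0222, 3.85e-06 and 6.97e-05). PH02Gene10863 was at 0.131, 0 and 0 FPKM in LT25d and 1.39, 1.94 and 2.07 in RT25d, and was lower on Day 15 (−3.55) and Day 25 (−5.04, edgeR adjusted p = 0.0107). The counts of both genes in LT are near 0, which limits the precision of these folds. The calls of PH02Gene10863 were lost with the replicates added up (edgeR adjusted p = 0.326 and 0.211), and its Day 15 call without any LT15d library or RT15d replicate 2 or 3. PH02Gene04054 (71A9-like) was at most 1.70 FPKM and was higher in LT on Day 15 (log2 fold change 1.94, SE 0.40, edgeR adjusted p = 0.000426), a call lost with the replicates added up (edgeR adjusted p = 0.0794).

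Family 72 held the largest fall of the 29 genes on Day 1 as well as several rises. PH02Gene35821 (72A14; scaffold 16, 53908065 to 53910384) was at 0.156, 0.272 and 0.340 FPKM in LT1d and 12.9, 12.8 and 15.8 in RT1d. RT1d was the highest of the 7 groups for this gene and LT1d the lowest, and the log2 fold change of −5.22 (SE 0.30, edgeR adjusted p = 4.49e-10) was followed by −2.13 on Day 25 (SE 0.26, edgeR adjusted p = 5.9e-06). PH02Gene35573 (72A13; scaffold 14, 40871081 to 40874874) was at 7.31, 6.09 and 5.22 FPKM in LT1d against 68.5, 67.5 and 50.7 in RT1d. The values were 3.78, 4.01 and 4.15 in LT15d against 33.2, 32.1 and 36.5 in RT15d, and 12.7, 13.8 and 13.1 in LT25d against 22.0, 37.0 and 42.1 in RT25d. The gene was lower in LT on every day without overlap of libraries, by −2.80 (SE 0.18), −2.70 (SE 0.18) and −1.30 (SE 0.17) on the log2 scale (edgeR adjusted p at most 1.2e-05). PH02Gene35823 (72A14), with 7.06 ± 0.853 FPKM (SD, n = 3) in LT1d and 24.7 ± 3.17 in RT1d, was also lower on each day (log2 fold changes −1.28, −1.41 and −1.22, edgeR adjusted p at most 1.27e-06).

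The P450 gene with the highest mean level over all libraries, PH02Gene50425 (72A15; scaffold 2535, 24192 to 27177), fell on Day 1. It stood at 30.9, 35.1 and 30.9 FPKM in LT1d, against 140, 152 and 140 in RT1d and 142, 113 and 149 in CK (log2 fold change to RT1d −1.63, SE 0.10, edgeR adjusted p = 7.5e-10). PH02Gene16324, with the same 72A15 description, was lower as well, at 18.9, 22.9 and 23.2 FPKM in LT1d and 86.1, 93.7 and 84.6 in RT1d (−1.50, SE 0.12, edgeR adjusted p = 1.53e-08). Their group means had an r of 0.97, the highest of the 406 pairs of tested P450 genes, whose median was 0.10. If the 2 genes are near-identical copies their reads cannot be assigned with certainty, and this was not checked. PH02Gene35579 (72A15) was instead higher in LT on Day 1, at 18.5, 61.6 and 40.1 FPKM against 2.71, 2.44 and 13.1, with a log2 fold change of 3.25 (SE 0.71, edgeR adjusted p = 0.000649). On Day 15 its call (1.61, SE 0.68, edgeR adjusted p = 0.046) was lost when any of the 6 compared libraries was left out and with the replicates added up (edgeR adjusted p = 0.440). PH02Gene44300 (72A14) was at 32.2, 47.9 and 41.9 FPKM in LT1d and 18.1, 15.1 and 14.6 in RT1d, and was higher in LT on Day 1 (1.88, SE 0.33, edgeR adjusted p = 7.93e-05) and Day 15 (1.49, SE 0.33, edgeR adjusted p = 0.000719, but 0.143 with the replicates added up).

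In family 76, the 2 tested 76C genes were higher in LT on Day 15 and the 76M gene was lower on Day 1. PH02Gene48031 (76C1; scaffold 21, 90405768 to 90407871) was among the genes with the highest levels, at 165, 108 and 138 FPKM in CK, 123, 133 and 128 in LT15d and 55.8, 58.0 and 58.7 in RT15d. It was called higher in LT on Day 15 (log2 fold change 1.55, SE 0.23, edgeR adjusted p = 1.42e-05), and with the replicates added up it was the single P450 gene still called higher that day (edgeR adjusted p = 0.0442). PH02Gene23722 (76C1; scaffold 21, 90624049 to 90625983) was at 36.6, 39.0 and 38.5 FPKM in LT15d and 19.9 in each RT15d library, and at 52.0, 52.6 and 47.4 in LT25d and 11.0, 23.1 and 30.5 in RT25d. It was higher in LT on Day 15 (1.33, SE 0.27, edgeR adjusted p = 0.000348) and Day 25 (1.29, SE 0.27, edgeR adjusted p = 0.000816). Neither was called with the replicates added up (edgeR adjusted p = 0.114 and 0.0722), the Day 15 call was also lost with library size only, and the Day 25 call without RT25d replicate 1, each at a log2 fold change of 0.98. PH02Gene16412 (76M5-like) was lower on Day 1, at 0.246, 0.269 and 0.190 FPKM in LT1d and 3.12, 1.77 and 2.63 in RT1d (−2.84, SE 0.37, edgeR adjusted p = 3.12e-06). The summed FPKM of family 76 was highest in LT25d (249 ± 5.33, SD, n = 3) and was 89.9 ± 2.68 in LT1d and between 63.9 and 93.0 in the RT1d libraries.

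Culms before treatment served as a second reference. In LT1d 6 genes were higher than in CK (14.2% of all tested genes) and 11 lower (19.8% of all). In LT15d 7 were higher (16.2% of all) and 6 lower (22.4%), and in LT25d 7 were higher (11.3%) and 5 lower (17%). Under RT, 4 were higher (9.19%) and 7 lower (13.6%) on Day 1, whereas 6 were higher (10.4%) and 3 lower (15.3%) on Day 15. In RT25d 10 were higher (11%) and 3 lower (15.3%), and these 10 were 34.5% of the 29 genes. Of these, 6 were of family 72, whose summed FPKM was 838 ± 120 (SD, n = 3) in RT25d and 558 ± 79.7 in CK. Without RT25d replicate 1, the total called in RT25d against CK was 8 instead of 13. All 6 comparisons share the CK libraries.

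Most family 72 genes lie in 2 stretches of the genome. On scaffold 14, 6 genes (5 tested) lie between 40871081 and 41315491, and on scaffold 16, 9 genes (7 tested) lie within 617.8 kb from 53908065 to 54525863. Within a stretch the called genes did not share a direction on Days 1 and 15, while those called on Day 25 were all lower. In LT1d against RT1d, 3 genes of scaffold 14 were higher and 1 lower, and 2 of scaffold 16 were higher and 3 lower. In LT15d against RT15d, each stretch had 1 gene higher and 2 lower. In LT25d against RT25d, 4 genes of scaffold 16 and 1 of scaffold 14 were lower, and 0 were higher in either. Of all tested genes, 13.2% were called lower on that day. With a gap of at most 100 kb between neighbours, 22 of the 41 P450 genes formed 8 groups of neighbours. No P450 gene of the 3 families lay within 500 kb of a TDC gene.

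The genes around the P450 step were described by counts. Of 19 tested genes of tryptophan supply, from anthranilate synthase to tryptophan synthase, LT raised 14 on Day 1, 8 on Day 15 and 1 on Day 25, or 73.7%, 42.1% and 5.26%, against 20.8%, 19.3% and 11.3% of all tested genes. It lowered 1, 1 and 3 of them, or 5.26%, 5.26% and 15.8%, against 23.4%, 20.8% and 13.2% of all. Of the 4 tested genes described as serotonin N-acetyltransferase or acetylserotonin O-methyltransferase, which turn serotonin into melatonin, 1 was lower on Day 1 and 1 higher on Day 25. Each is 25% of the 4, against 23.4% of all tested genes lower on Day 1 and 11.3% higher on Day 25. Among 13 tested genes with cytochrome b5 in their description, 1 was higher and 4 lower at Day 1 (7.69% and 30.8%, against 20.8% and 23.4% of all). At Day 15, 2 were higher and 2 lower (15.4% each, against 19.3% and 20.8% of all). At Day 25, 1 was higher and 1 lower (7.69% each, against 11.3% and 13.2% of all). This list is wider than cytochrome b5 itself, since it also holds genes described as NADH-cytochrome b5 reductase 1 and a cytochrome b5 domain-containing protein. The gene higher at Day 1 was that domain-containing protein (PH02Gene37999), and the gene lower at Day 25 was a reductase (PH02Gene04483).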

How the data were processed

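Black bamboo culms were analysed in 7 groups of 3 libraries, grouped by their labels. As the methods of the study state, HISAT2 placed the reads on the genome of P. edulis (moso bamboo) and StringTie assembled them, while the submitters' processing notes name cutadapt, FastQC and Salmon. The authors deposited FPKM values (scaled by transcript length and mapped fragments) and estimated counts (whole numbers, not normalized) for each gene and library. For the counts, tool, strand setting and treatment of multiply mapped reads were not given in the sources used here. No per-sample column was left out. Here, edgeR 4.0.16 (R 4.3.3; TMM, glmQLFit, glmQLFTest) was fitted to all 21 libraries over 29913 genes with Benjamini-Hochberg adjustment over all of them, and checked on simulated data. Alternatives used limma 3.58.1 on log2(FPKM + 1) and log2(FPKM + 0.1), DESeq2 1.42.0, other scalings and filters, the replicate block, the compared libraries alone, summed groups, and each replicate left out. An exact permutation test of 3 against 3 has 0.1 as its smallest p, so model p-values are given. SE is the log2 fold change divided by the square root of F.

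The P450 genes, lists and tests were chosen with earlier results of these data known. The genes named were those with the 3 largest rises and falls in LT against RT on each day without overlap of libraries, the 5 highest mean levels, the highest in each group, the 6 highest and 3 lowest r with TDC, those called alike on all 3 days, and the tested TDC genes. Genes named only in the observations at the end, and PH02Gene37999 and PH02Gene04483 of the cytochrome b5 list, were chosen after their values were seen.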

Additional observations from a re-analysis of the deposited data

Results flagged for a closer look

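The LT effect (log2 fold change, LT against RT) differed between Day 1 and Day 25 in 13 of the 20 named P450 genes by the interaction term of the edgeR fit (adjusted p from 7.9e-09 to 0.0364). Among all tested genes 44.9% were called, and the naming rule, which takes the largest rises and falls on single days, favours such differences. The value given is the Day 1 effect minus the Day 25 effect. It was positive for PH02Gene03042 (7.61), PH02Gene10863 (5.09), PH02Gene19833 (4.78), PH02Gene38362 (2.79), PH02Gene35579 (2.63), PH02Gene10862 (2.20) and PH02Gene44300 (1.39). It was negative for PH02Gene35821 (−3.09), PH02Gene11202 (−3.06), PH02Gene16412 (−2.68), PH02Gene23722 (−1.90), PH02Gene35573 (−1.50) and PH02Gene50425 (−1.14). PH02Gene03042 was called in opposite directions on the 2 days, and PH02Gene11202 was called on neither. Calls for PH02Gene44300 (0.91, adjusted p = 0.0613) and PH02Gene35579 (2.08, adjusted p = 0.0734) were lost without RT25d replicate 1, and that for PH02Gene35579 also without LT1d replicate 2 (2.15), RT1d replicate 1 (2.27) or RT1d replicate 2 (2.25). The call for PH02Gene10862 was lost without LT1d replicate 1, LT25d replicate 3, RT1d replicate 2 or RT25d replicate 3. That for PH02Gene10863, which rests on counts near 0 in LT25d, and that for PH02Gene11202 were lost without any of several single libraries (7 and 9 of the 12 compared). With the replicates of LT15d, of LT25d and of RT15d added up, the calls for PH02Gene10862, PH02Gene10863, PH02Gene11202, PH02Gene35579 and PH02Gene44300 were lost (adjusted p from 0.0652 to 0.205).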

How the results depend on the processing

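Counts of P450 genes called higher in LT depended most on the processing. On Day 1 they were 4 with library size only, 4 with limma on log2(FPKM + 1) and 4 with limma on log2(FPKM + 0.1), instead of 7, and 5 instead of 8 were lower with a mean FPKM of at least 5. Of all 29913 tested genes, 4238, 3441 and 4120 were higher with the same library size and limma settings, instead of 6224. With a mean FPKM of at least 5, 3565 of 17314 were lower, instead of 7008 of 29913. On Day 15, 4 instead of 7 were higher with library size only, 3 with a mean FPKM of at least 5, 2 with limma on log2(FPKM + 1) and 4 with log2(FPKM + 0.1). Of all tested genes, 4079, 3148, 3009 and 3917 were higher in the same settings, instead of 5766. The 3148 were among the 17314 genes that the filter on mean FPKM left. With the replicates of LT15d, of LT25d and of RT15d added up to 1 library a group, a lone library is assumed to vary like the other groups. Fewer P450 genes were then called on Days 15 and 25, in LT25d and RT15d against CK, and for the differences between days. Fewer of all tested genes were called in each of these comparisons as well. A mean FPKM of at least 5 left 1 higher on Day 25, 7 called in LT15d and 8 in RT25d against CK, and 9 differing between Days 1 and 15, as did limma on log2(FPKM + 1) (9). The compared libraries alone gave 7 in RT1d and 6 in RT25d against CK, where fewer of all tested genes were called too. The filter on mean FPKM leaves fewer genes to test, and for the other settings the cause was not tested.

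With each library left out in turn, Day 1 had 6 to 8 higher and 7 to 8 lower, Day 15 had 5 higher and 8 to 9 lower, and Day 25 had 1 to 3 higher, the 1 without LT25d replicate 3, and 9 to 10 lower. Against CK the ranges were 14 to 18 for LT1d, 11 to 13 for LT15d, 11 to 16 for LT25d, 9 to 11 for RT1d, 6 to 12 for RT15d and 8 to 14 for RT25d, and for the differences between days 14 to 17 (Day 25) and 12 to 16 (Day 15). The number of genes with r of at least 0.9 to TDC was 1 throughout, and 0 with Spearman's rho or PH02Gene42906 alone as the reference. Neighbour groups were 5 at 50 kb. Replicate numbers did not pair the samples (same-number correlations from −0.08 to 0.01), and with the replicate block Day 1 had 7 higher and 8 lower, Day 15 had 6 and 8, and Day 25 had 3 and 9. Of single values called, 800 kept their call and direction under an alternative and 109 lost the call, and none changed direction. Of the 53 such values, 20 lost their call with the replicates added up, the largest loss of any alternative run, and 0 with DESeq2. Genes near 0 counts have imprecise folds.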

Other observations

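Among the redox partners of P450s, the NADPH-cytochrome P450 reductase gene PH02Gene31762 was at 119 FPKM on average in LT1d and 59.8 in RT1d, and 81.3 in LT15d and 23.9 in RT15d, with log2 fold changes of 1.51 and 2.16 by edgeR. On Day 25 it was at 27.4 in LT25d and 50.7 in RT25d (−0.84, edgeR adjusted p = 0.00139), under the fold threshold. PH02Gene09307, a gene with a similar description, was lower in LT on Day 1 (−1.36) and higher on Day 25 (1.63), and PH02Gene42731 was lower on Day 15 (−1.83). Of the 8 tested reductase genes, these 3 were the ones called on any day. Among all tested genes, 35% were called on none of the 3 days, so calls were no more frequent among the reductase genes.

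Of the 12 P450 genes that did not pass the filter, PH02Gene03270 (71A) was at 0.792, 0.963 and 0.805 FPKM in LT1d and listed at 0 in all libraries of RT1d and RT25d. It was at 0.199, 0.318 and 0.647 FPKM in LT15d and 0.096, 0.0685 and 0.0862 in RT15d. PH02Gene03043 (71A), the neighbour of PH02Gene03042, reached 1.77 FPKM in CK replicate 1 and was listed at 0 in all LT1d libraries.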
